A study of Mus musculus with 8 samples.

Results

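Thyrotropin-releasing hormone and the genes that receive, break down and relay the thyroid signal were examined in the hypothalamus of adult mice exposed to maternal separation. The set held 9 genes, *Trh*, *Trhr*, *Trhde*, *Dio2*, *Dio3*, *Thra*, *Thrb*, *Slco1c1* and *Igsf1*. They were taken by gene name from the array annotation, which gave 14 of the 55681 probes that are not controls. All mice were male, of the strain C3H/HeN, and food deprived for 12 h before the brain was taken. Per the methods, the offspring worked for a palatable reward in operant chambers at 4 to 5 months of age. They were food restricted during the first training and food deprived again for a later choice test. The arrays followed this operant work. The MS group held 4 mice taken from their dam on each day of PND 2 to 14, for 180 min at a time, while the dam met unpredictable stress. The control group held 4 mice left undisturbed. Each hypothalamus (HT) was dissected and gave 200 ng of RNA for 1 one-color array, so that each value belongs to 1 mouse.

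A single slide carried the 8 arrays, and each of its 2 rows had 2 mice of either group. Controls are named by their numbers 6.2, 8.2, 8.4 and 8.5, and MS mice by 5.3, 7.1, 7.2 and 7.6. Per the methods whole litters were assigned to a group, but litters and cages are not in the labels. Controls 8.2, 8.4 and 8.5 share a first number, as do MS mice 7.1, 7.2 and 7.6. What this number stands for is not given. A p-value therefore measures only the spread between these mice. The array of MS mouse 7.6 was the dimmest, with a 75th percentile of 499 intensity units against 751 to 902 in the other mice. Of 10 markers of the hypothalamus, all were measured and 9 were well above background on all 8 arrays. The pituitary markers stood apart in control mouse 6.2, where their summed level was 295 times the 75th percentile of the array, against 18.7 to 35.4 in the other 7 mice. *Gh* and *Prl* made up 68.1% of this sum over the mice, and without them it was 52.9 in control mouse 6.2 and 5.33 to 24.3 in the others. Such sums and shares, here and below, are of array signal, which differs by probe, and not of RNA amounts.

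TRH is a short peptide made by neurons of the paraventricular nucleus, and by other hypothalamic neurons, from the precursor that *Trh* encodes. Released at the median eminence, it drives the pituitary to secrete thyrotropin, which makes the thyroid gland release its hormones. Thyroid hormone in turn enters the brain through transporters, is activated by the type 2 deiodinase of tanycytes and astrocytes, and represses *Trh* through its nuclear receptors. Fasting is known to lower *Trh* in the paraventricular nucleus, and all mice here had been fasted.

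The data showed no difference between the groups that passed the test in any of the 9 genes. Of the 14 probes, all were bright enough to be tested and 13 were well above background on all 8 arrays. With limma and the adjustment over all 37314 probes tested, 0 of the 14 had an adjusted p under 0.05, and the same was true of 0% of all probes tested. At an unadjusted p under 0.05 the count was again 0 of 14, against 3.4% of all probes tested. This count changed under some alternatives, as given in the closing section. In 0 of the 14 probes were the 4 control values and the 4 MS values fully apart, against 2.03% of all probes tested. The log2 fold change (MS minus control) was above 0 in 9 probes and below 0 in 5. Its median was 0.023 over the 14 probes and -0.0012 over all probes tested, and the median size was 0.055 and 0.069. In 12 of the 14 probes the 95% confidence interval lay wholly within 1.5-fold in either direction, as it did in 84.0% of all probes tested. The exceptions were *Trh* and *Dio3*.

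**Figure D1:**
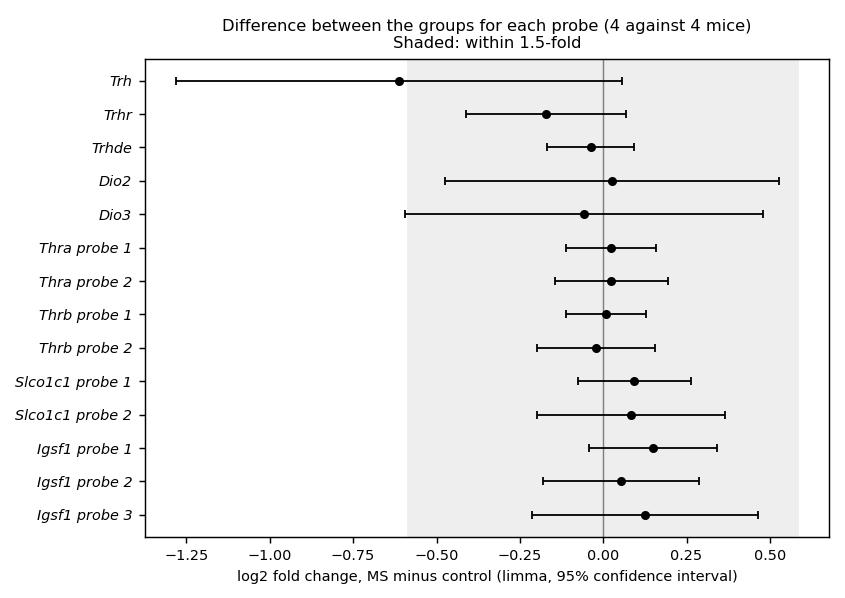
Log2 fold change (MS minus control, x axis) of each of the 14 probes with its 95% confidence interval from limma, 4 against 4 mice. The grey band marks 1.5-fold in either direction, and only the intervals of *Trh* (-1.28 to 0.055) and *Dio3* (-0.59 to 0.48) reach past it.

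*Trh* encodes the precursor of the releasing hormone itself and had the largest difference of the 9 genes. Its probe reads chr6:92192061-92192120 of mm9, on the minus strand. Levels are given as log2 of the signal relative to the 75th percentile of the same array, and they cannot be set against those of another probe. The last 30 bases of the probes for *Trh* and its receptor are shown because both carry AATAAA, the letters of the polyadenylation signal, here in capitals. The same letters occur in the last 30 bases of 8.16% of all probes and in 3 of the 14.
Trh: tgttaatctcaatgacAATAAAatatatcc
Trhr: tgtatgtatgagcAATAAAgtatcaaactg

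In the control mice *Trh* measured 4.61 in mouse 6.2, 4.66 in 8.2, 4.73 in 8.4 and 4.38 in 8.5. In the MS mice it measured 3.51 in mouse 5.3, 4.89 in 7.1, 3.50 in 7.2 and 4.03 in 7.6. The controls stood close together, whereas 3 of the 4 MS mice lay below every control and MS mouse 7.1 lay above every control, so the groups overlapped. On the linear scale the highest MS mouse had 2.62 times the signal of the lowest, and the highest control 1.27 times that of the lowest. Such an arrangement, with at least 3 MS mice below all controls, was found in 7.18% of all probes tested.

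The mean of *Trh* was 4.59 ± 0.15 in control mice and 3.98 ± 0.65 in MS mice (SD, n = 4 each). The log2 fold change was -0.61 (standard error 0.29, 95% confidence interval -1.28 to 0.055), which corresponds to an MS level of 65.4% of the control level. The test was not passed (limma, p = 0.0675, adjusted p = 0.989; exact permutation test, two-sided, p = 0.143, where the smallest p that 4 against 4 mice allow is 0.0286). A difference of that size or larger in either direction occurred in 1.43% of all probes tested. The SD of the MS mice was 4.43 times that of the controls, a ratio reached by 3.64% of all probes tested. In both measures *Trh* had the largest value of the 14 probes, so neither share is that of a probe picked beforehand. No test of the spread was made.

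The difference in *Trh* depended on which mice were compared. Within row 1 of the slide the MS mice 5.3 and 7.2 gave a log2 fold change of -1.19 against the controls 8.2 and 8.4. Within row 2 the MS mice 7.1 and 7.6 gave -0.034 against the controls 6.2 and 8.5. The rows differed by 1.16 (limma interaction, chosen after the values had been seen, adjusted p = 0.941), which did not pass the test. Without MS mouse 7.1, the highest of its group, the log2 fold change was -0.92 (limma, adjusted p = 0.908). The groups then no longer overlapped, as in 5.42% of all probes tested with that mouse left out. Without MS mouse 5.3 or 7.2 the log2 fold change was -0.45.

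Markers of the hypothalamus did not move together. The summed level of the 10 markers, in multiples of the 75th percentile, was 455 to 527 in the control mice. In the MS mice it was 387 in mouse 5.3, 368 in 7.2, 407 in 7.6 and 526 in 7.1. *Oxt* and *Avp* made up 46.4% of this sum over the mice. The 3 MS mice below all controls in *Trh* were below all controls in this sum, but only with *Hcrt* and *Pmch* in it. Without these 2 genes, left out after the values were seen, the sum still held *Oxt* and *Avp*. It was then 259 to 347 in control mice and 311, 293, 287 and 370 in MS mice 5.3, 7.2, 7.6 and 7.1. No MS mouse was below the lowest control in this smaller sum. Of the 10 markers 4 were above 0 in MS minus control and 6 below, with a median of -0.087. Of the summed level of 6 markers of paraventricular neurons, *Oxt* and *Avp* made up 99.4%. It was 182 to 227 in control mice and 162 to 294 in MS mice, and the other 4 markers summed to 1.09 to 1.56 and 1.15 to 1.33. Whether the content of hypothalamic tissue had a part in the *Trh* values was not tested. In tissue RNA of this kind, fewer cells of a type and less RNA per cell cannot be told apart.

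Among 16587 genes with a value in every mouse, *Vax1* was most like *Trh* over the 8 arrays, with a Pearson r of 0.97. *Frs3* (0.96), *Il3ra* (0.96), *Omp* (0.94) and *Pmch* (0.94) followed. The r is a description over 8 arrays that share 1 slide, and 26 genes had an r over 0.9. *Pmch*, the precursor of melanin-concentrating hormone in the lateral hypothalamus, is also 1 of the 10 hypothalamus markers. It measured 6.54, 6.72, 6.76 and 6.53 in control mice 6.2, 8.2, 8.4 and 8.5. It measured 6.02, 6.56, 5.97 and 6.16 in MS mice 5.3, 7.1, 7.2 and 7.6. As for *Trh*, MS mice 5.3 and 7.2 were the lowest, a likeness that the choice by r favors. *Hcrt*, the orexin precursor and a marker from the same list that was named after its values were seen, measured 3.46 in MS mouse 5.3 and 3.54 in 7.2, against 5.51 to 6.65 in the other 6 mice. Neither gene passed the test (limma, log2 fold change -0.46 for *Pmch* and -1.45 for *Hcrt*, adjusted p = 0.989 for both).

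**Figure D2:**
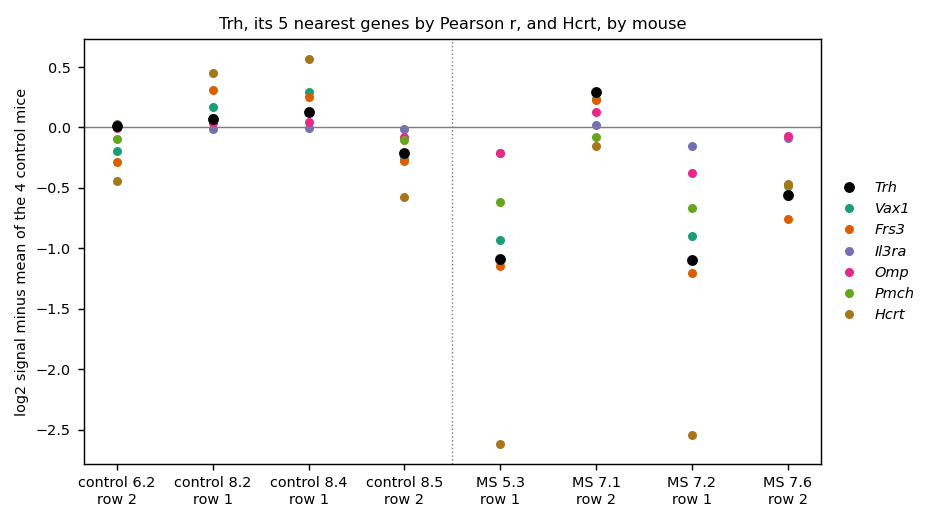
Log2 signal of *Trh*, the 5 genes of highest Pearson r with it and *Hcrt* in each mouse (x axis, with the slide row), minus the mean of the 4 control mice (y axis). All 7 genes lie below the control mean in MS mice 5.3 and 7.2, and *Trh* lies above it in MS mouse 7.1. The 5 genes were chosen for their likeness to *Trh* in these same mice, and *Hcrt* after its values were seen. Their shared low values are therefore no separate result.

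The region in front of *Trh* is shown because thyroid hormone receptors and the cAMP pathway are both known to act on this promoter. RefSeq gives its start on the minus strand, and the window of 250 bases before to 50 after it is chr6:92244601-92244900 of GRCm38. Searched on both strands were AGGTCA, the core letters that nuclear receptors such as the thyroid hormone receptors bind, and TGACG, the core of a cAMP response element. The matches are in capitals, CGTCA being TGACG and TGACCT being AGGTCA read on the other strand. They stand at -96 to -92 and at -57 to -52 from the start. The *Dio2* window, chr12:90738989-90739288 on the minus strand, holds TGACG at -95 to -91, and the same letters on the other strand overlap it and make a palindrome.
Trh promoter: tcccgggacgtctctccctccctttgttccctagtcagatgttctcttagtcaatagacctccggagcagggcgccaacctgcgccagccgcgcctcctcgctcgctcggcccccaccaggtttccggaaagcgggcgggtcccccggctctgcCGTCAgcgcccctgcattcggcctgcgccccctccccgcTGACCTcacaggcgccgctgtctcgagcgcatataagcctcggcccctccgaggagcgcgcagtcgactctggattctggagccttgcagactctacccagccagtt
Dio2 promoter: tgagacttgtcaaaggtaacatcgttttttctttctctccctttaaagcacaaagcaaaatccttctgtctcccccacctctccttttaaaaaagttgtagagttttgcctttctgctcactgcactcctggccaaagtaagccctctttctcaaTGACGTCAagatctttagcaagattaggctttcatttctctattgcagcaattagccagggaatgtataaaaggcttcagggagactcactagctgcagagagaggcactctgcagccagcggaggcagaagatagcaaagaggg

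Of the 9 genes, 7 had an entry, with 10 windows in all, and *Trhr* and *Thra* had none. AGGTCA was in 3 of the 10 windows (*Trh*, *Thrb* and *Igsf1*) and in 16.3% of the 32851 windows of all genes. TGACG was in 4 of the 10 (*Trh*, *Dio2*, *Thrb* and *Igsf1*) and in 20.8% of all. A match of letters is a description and no measure of binding.

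*Trhr* encodes the receptor through which TRH acts, on neurons and on pituitary cells, and its probe reads chr15:44067399-44067458 of mm9. It measured -0.12, 0.0038, -0.068 and 0.25 in control mice 6.2, 8.2, 8.4 and 8.5. In MS mice 5.3, 7.1, 7.2 and 7.6 it measured -0.30, -0.050, -0.012 and -0.27. MS mice 5.3 and 7.6 were below all controls, and the other 2 lay among them. This gave a log2 fold change of -0.17 (standard error 0.10, 95% confidence interval -0.41 to 0.068; limma, adjusted p = 0.989). It was -0.12 within row 1 and -0.22 within row 2. Control mouse 6.2, where pituitary markers were highest, had the lowest *Trhr* value of its group. This is 1 mouse, and the part of pituitary tissue in the *Trhr* values was not tested.

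*Trhde*, the membrane enzyme that cleaves TRH outside the cell, was among the steadiest of the set. Its probe (chr10:113836328-113836387 of mm9) ranged from -1.89 to -1.75 in control mice and from -1.90 to -1.79 in MS mice. All 8 mice lay within 0.16 on the log2 scale. On the log2 scale MS minus control was -0.038 (95% confidence interval -0.17 to 0.092; limma, adjusted p = 0.989), with a sign that changed under 3 of the 20 alternatives.

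*Dio2* encodes the deiodinase that turns thyroxine into the active hormone, in the brain mainly in tanycytes and astrocytes, and its probe reads chr12:91963235-91963294 of mm9. In control mice 6.2, 8.2, 8.4 and 8.5 it measured 1.60, 1.20, 1.51 and 1.41. In MS mice 5.3, 7.1, 7.2 and 7.6 it measured 2.07, 1.03, 1.16 and 1.56. The MS mice held both ends of the range, with mouse 5.3 above and mice 7.1 and 7.2 below every control. The means were 1.43 ± 0.17 in control and 1.46 ± 0.47 in MS mice (SD, n = 4 each). MS minus control gave a log2 fold change of 0.026 (standard error 0.22, 95% confidence interval -0.48 to 0.53; limma, adjusted p = 0.995), and it was 0.27 in row 1 and -0.21 in row 2. The SD of the MS mice was 2.69 times that of the controls, a ratio reached by 11.9% of all probes tested.

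The summed level of 8 tanycyte markers, of which *Lhx2* and *Crym* made up 57.6%, was 5.97 to 7.91 in control mice and 6.31 to 7.63 in MS mice. MS mouse 7.1, lowest in *Dio2*, had the lowest sum of its group, but MS mouse 5.3, highest in *Dio2*, had 7.12 and not the highest. For astrocytes, 9 of 10 markers were above 0 in MS minus control, and the median was 0.080. The summed level of these markers was 394 to 430 in control mice. It was 404 to 413 in MS mice 5.3, 7.1 and 7.2 and 507 in MS mouse 7.6, whose array was the dimmest. Over the mice *Aldoc* and *S100b* made up 77.6% of this sum. *Aldoc* measured 8.51 in MS mouse 7.6 and 8.06 to 8.21 in all other mice. The part of either cell type in the *Dio2* values was not tested.

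*Dio3*, the deiodinase that inactivates thyroid hormone, was near the limit of detection. Its probe (chr12:111518792-111518851 of mm9) was well above background in 2 control mice and 2 MS mice. It ranged from -6.32 to -5.25 in control mice and from -6.27 to -5.80 in MS mice, and control mouse 8.5 was the highest. The log2 fold change of -0.057 (95% confidence interval -0.59 to 0.48; limma, adjusted p = 0.992) changed sign under 6 of 18 alternatives. The other 4 mice had a signal not well above background. With 4 mice a group at this brightness, the values do not settle whether there was a difference within this interval.

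The thyroid hormone receptors had narrow intervals. *Thra* encodes the alpha receptor, the main form in brain. Its brighter probe (chr11:98626356-98626415 of mm9) measured 4.34, 4.43, 4.39 and 4.24 in control mice 6.2, 8.2, 8.4 and 8.5. It measured 4.40, 4.39, 4.39 and 4.32 in MS mice 5.3, 7.1, 7.2 and 7.6. All MS mice lay within the range of the controls. The other probe covers 60 bases of transcript spread over 807 bases of the genome (chr11:98617475-98618281 of mm9), as a probe across an intron does. It ranged from 0.49 to 0.56 in control mice and from 0.41 to 0.73 in MS mice, with MS mouse 7.1 highest. The log2 fold changes were 0.022 (95% confidence interval -0.11 to 0.16) and 0.025 (-0.14 to 0.19), with an adjusted p of 0.990 and 0.992 (limma).

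*Thrb* encodes the beta receptor, which is known to carry most of the feedback on *Trh*. Both of its probes lie on chromosome 14, at chr14:18868800-18868859 and chr14:18869432-18869491 of mm9. The brighter ranged from 0.74 to 0.83 in control mice and from 0.74 to 0.84 in MS mice. The dimmer ranged from -1.31 to -1.10 in control mice and from -1.34 to -1.10 in MS mice. The groups covered nearly the same range in both. The log2 fold changes were 0.0076 (95% confidence interval -0.11 to 0.13) and -0.022 (-0.20 to 0.15), with an adjusted p of 0.994 and 0.992 (limma). The signs of the *Thra* and *Thrb* values changed with the processing, as given in the closing section.

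*Slco1c1* encodes a thyroxine transporter of the brain capillaries, and 2 probes read it at chr6:141518164-141518223 and chr6:141517875-141517934 of mm9. The brighter measured 0.28, 0.47, 0.29 and 0.33 in control mice 6.2, 8.2, 8.4 and 8.5. It measured 0.49, 0.52, 0.44 and 0.29 in MS mice 5.3, 7.1, 7.2 and 7.6. MS mice 5.3 and 7.1 were above all controls, and MS mouse 7.6 was close to the lowest control. This gave a log2 fold change of 0.093 (standard error 0.074, 95% confidence interval -0.077 to 0.26; limma, adjusted p = 0.989). The dimmer probe ranged from -0.65 to -0.22 in control mice and from -0.63 to -0.23 in MS mice, with a log2 fold change of 0.083 (95% confidence interval -0.20 to 0.37). Both stayed above 0 under all 20 alternatives, and neither passed the test in any of them. The value of the dimmer probe ranged from 0.013 without control mouse 8.5 to 0.17 without MS mouse 7.6. The 8 endothelial markers had a summed level of 55.1 to 62.2 in control mice and 54.7 to 67.9 in MS mice. *Ly6c1* and *Slc2a1* made up 72.9% of it over the mice.

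*Igsf1* encodes a membrane glycoprotein of the pituitary and brain whose loss causes central hypothyroidism in people. The array annotation places its 3 probes under the accessions of 3 transcript variants, after which they are named here, and their ends are shown to tell the probes apart. Whether a probe reads 1 variant alone was not tested. AATAAA is in capitals.
Igsf1 variant 1 probe: tcctggtaactcctcactgtactgatttac
Igsf1 variant 3 probe: gAATAAAatgcatatagcggacttcttcct
Igsf1 variant 2 probe: tgagctacaaatcagagtcacacatgcttt

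They read chrX:47135787-47135846, chrX:47139526-47139585 and chrX:47146908-47146967 of mm9, on the minus strand. The variant 1 probe measured 5.29, 5.18, 5.13 and 5.37 in control mice 6.2, 8.2, 8.4 and 8.5. It measured 5.35, 5.35, 5.29 and 5.58 in MS mice 5.3, 7.1, 7.2 and 7.6. MS mouse 7.6 lay above every control and the other MS mice among the upper controls. The log2 fold change was 0.15 (standard error 0.084, 95% confidence interval -0.044 to 0.34; limma, adjusted p = 0.989), and it was 0.16 within row 1 and 0.14 within row 2. Without control mouse 8.5, the highest of its group, it was 0.19. The groups then did not overlap, as in 4.16% of all probes tested with that mouse left out.

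The variant 3 probe of *Igsf1* ranged from -1.78 to -1.43 in control mice and from -1.72 to -1.38 in MS mice. The variant 2 probe ranged from -3.58 to -2.90 in control mice and from -3.30 to -2.90 in MS mice. Their log2 fold changes were 0.054 (95% confidence interval -0.18 to 0.29) and 0.12 (-0.21 to 0.46), and the adjusted p was 0.989 for both (limma). Control mouse 6.2, with the most pituitary signal, was the highest control on both probes but not on the variant 1 probe. The part of pituitary tissue in the *Igsf1* values was not tested.

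**Figure D3:**
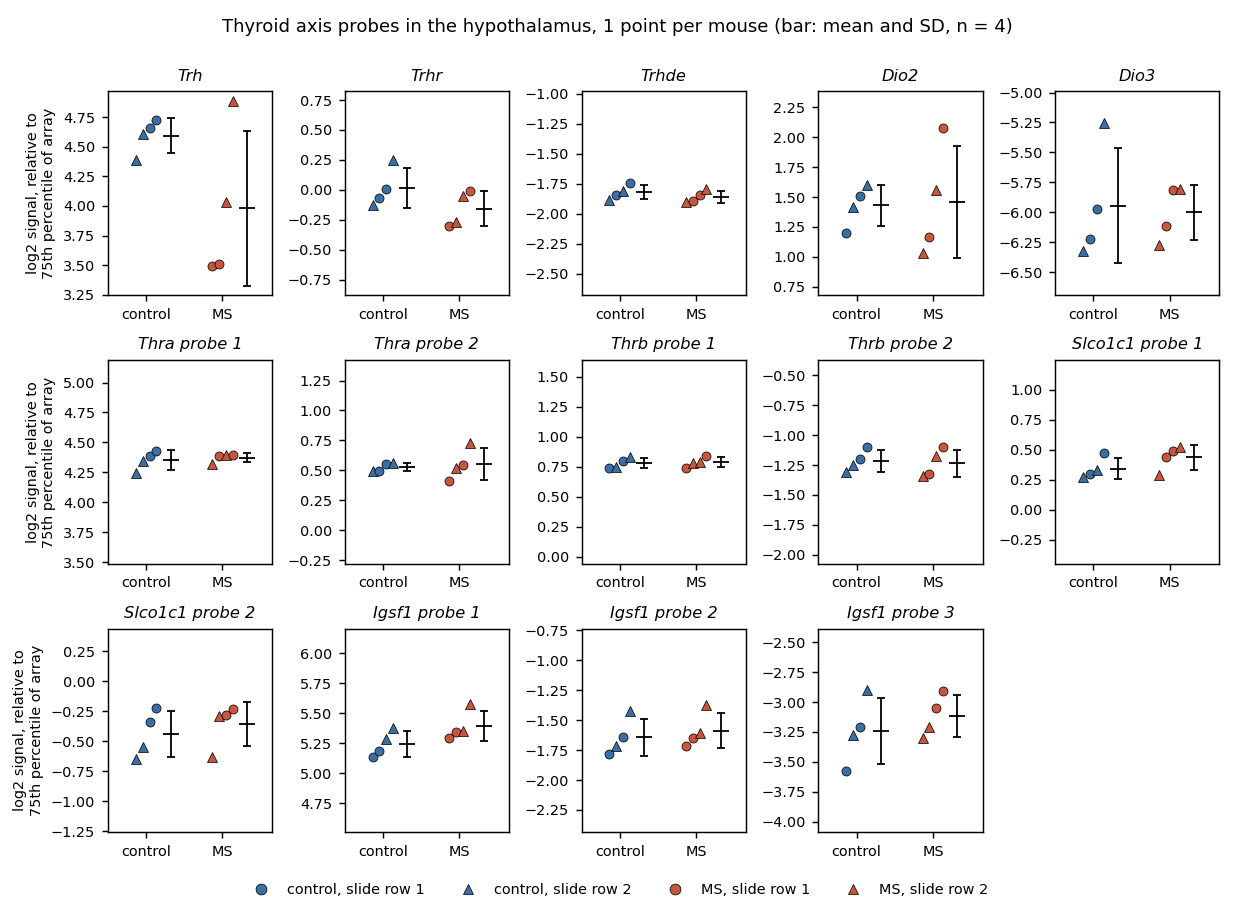
Log2 signal relative to the 75th percentile of the array (y axis) for the 14 probes, with 1 point per mouse, control in blue and MS in red, circles for slide row 1 and triangles for row 2. Bars give mean and SD (n = 4). The panels differ in range, and the widest spread within a group is that of *Trh* in MS mice, from 3.50 to 4.89.

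For the 4 genes with more than 1 probe, the probes were set against each other in 6 pairs, a comparison added after the values had been seen. The log2 fold changes of the pairs differed by -0.070 to 0.095, and no difference passed the test (exact permutation test over mice, two-sided, adjusted p = 1 for all 6). Over the 8 mice Pearson's r of a pair was highest for *Slco1c1*, at 0.63 (permutation p = 0.116, adjusted 0.369), where Spearman's rho was 0.38 (p = 0.360, adjusted 0.935). It was 0.55 without the 2 mice farthest from the median. For the *Thra* pair r was 0.013 (permutation p = 0.971) and rho -0.071 (p = 0.882), and for the *Thrb* pair r was 0.17 (permutation p = 0.681) and rho 0.21 (p = 0.619). The 3 pairs of *Igsf1* had an r from 0.12 to 0.60 (smallest permutation p = 0.123, adjusted 0.369). Without the 2 mice farthest from the median their r was -0.084 to 0.24, the latter for the pair at 0.60. None of these relations passed the test.

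The genes around these 9 were described by 6 lists with 47 genes, of which 46 were measured. With limma, 0 of the 46 had an adjusted p under 0.05, against 0% of all probes tested. An unadjusted p under 0.05 was found for 1 (2.17%, against 3.4% of all probes tested), and the groups were fully apart in 0 (against 2.03%). Their log2 fold change was above 0 in 27 and below 0 in 19, with a median of 0.025 against -0.0012 for all probes tested.

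Of 8 genes that make TRH from its precursor, break it down or receive it, 4 were above 0 and 4 below, with a median of 0.0059. *Pcsk1*, a convertase that cuts the precursor, had a log2 fold change of -0.055, and *Cpe*, the carboxypeptidase that trims the cut ends, had 0.070. *Trhr2*, the other TRH receptor of rodents, measured -2.40 in MS mouse 7.6 and between -5.50 and -4.55 in the other 7 mice, so that its log2 fold change of 0.54 rested on 1 mouse. Of 8 transporters and binding proteins, 6 were above 0 and 2 below, with a median of 0.033. *Crym*, which binds thyroid hormone in the cytosol, had a log2 fold change of -0.092. *Ttr*, the thyroxine carrier made by the choroid plexus, measured -0.73, -0.18, -2.66 and -3.06 in the controls and -2.89 to -1.53 in the MS mice, so that the controls held both ends.

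Of 7 genes in the list of deiodination, 2 were above 0 and 5 below, with a median of -0.053. They are the type 1 deiodinase *Dio1* (0.035) and 6 genes that help deiodinases to be made or removed, of which 1 was above 0. *Sepsecs*, an enzyme of selenocysteine synthesis, had -0.12 and *Usp20*, which removes ubiquitin from the type 2 deiodinase, had 0.037. *Iyd* was not tested because it was too dim. Of 11 partners of the thyroid hormone receptors, 8 were above 0 and 3 below, with a median of 0.037. *Rxra*, which pairs with them on DNA, had 0.12, and *Nr1d1*, whose gene overlaps the end of *Thra* on the opposite strand, had -0.13. Of 9 genes known to be induced by thyroid hormone in brain, 7 were above 0 and 2 below, with a median of 0.036 and a range from -0.092 (*Nrgn*) to 0.13 (*Sema7a*). None of the genes named from these 5 lists had an unadjusted p under 0.05 or an adjusted p under 0.989 (limma).

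**Figure D4:**
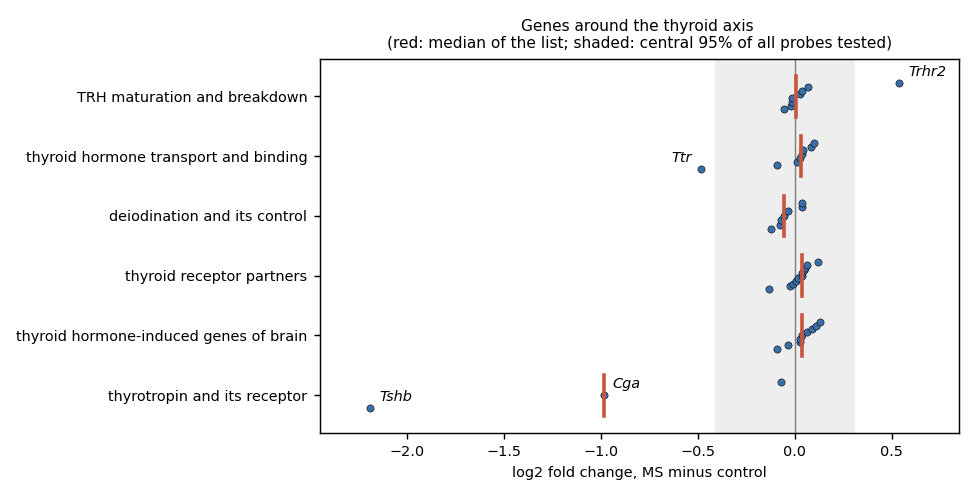
Log2 fold change (MS minus control, x axis) of 46 genes in 6 lists (y axis), 1 point per gene, with the median of each list in red. The shaded band holds the central 95% of all probes tested (-0.41 to 0.30), and *Tshb* (-2.19), *Cga* (-0.99), *Ttr* (-0.48) and *Trhr2* (0.54) lie outside it.

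The 1 gene with an unadjusted p under 0.05 was *Tshb*, a count below the share over all probes. It encodes the beta subunit of thyrotropin, the pituitary hormone that TRH releases, and is made in the pituitary, including its pars tuberalis under the median eminence. It measured 3.16, -1.06, 1.01 and 2.05 in control mice 6.2, 8.2, 8.4 and 8.5. It measured -0.084, -1.99, -1.38 and -0.15 in MS mice 5.3, 7.1, 7.2 and 7.6. All MS mice were below 3 of the 4 controls, but control mouse 8.2 lay among them. This gave a log2 fold change of -2.19 (standard error 0.87; limma, adjusted p = 0.989), and -1.57 without control mouse 6.2.

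*Cga*, the shared alpha subunit of the glycoprotein hormones, measured 5.39, 4.00, 3.55 and 4.29 in the controls and 3.64, 2.25, 3.44 and 3.95 in MS mice 5.3, 7.1, 7.2 and 7.6. Its log2 fold change was -0.99, or -0.63 without control mouse 6.2 (limma, adjusted p = 0.989 with all mice). *Tshr*, the receptor of thyrotropin, had -0.073. With all mice, all 6 pituitary hormone genes measured were below 0, with *Lhb* at -0.84, *Fshb* at -0.60, *Gh* at -0.45 and *Prl* at -0.23. *Gh* measured 7.11 in control mouse 6.2 and 0.97 to 3.52 in the other 7 mice, and *Prl* 6.70 and 1.45 to 4.04. Without control mouse 6.2 the log2 fold change was 0.85 for *Gh* and 0.93 for *Prl*, and it was -0.42 for *Lhb* and -0.025 for *Fshb*. The part of pituitary tissue in the *Tshb* and *Cga* values was not tested. In MS mouse 7.1, with the highest *Trh*, *Tshb* and *Cga* were the lowest of all 8 mice. MS mouse 7.2, with the lowest *Trh*, also had a low *Tshb* (-1.38), and control mouse 6.2 had the highest *Tshb*. A relation of *Trh* to either gene over the mice was not tested.

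**Figure D5:**
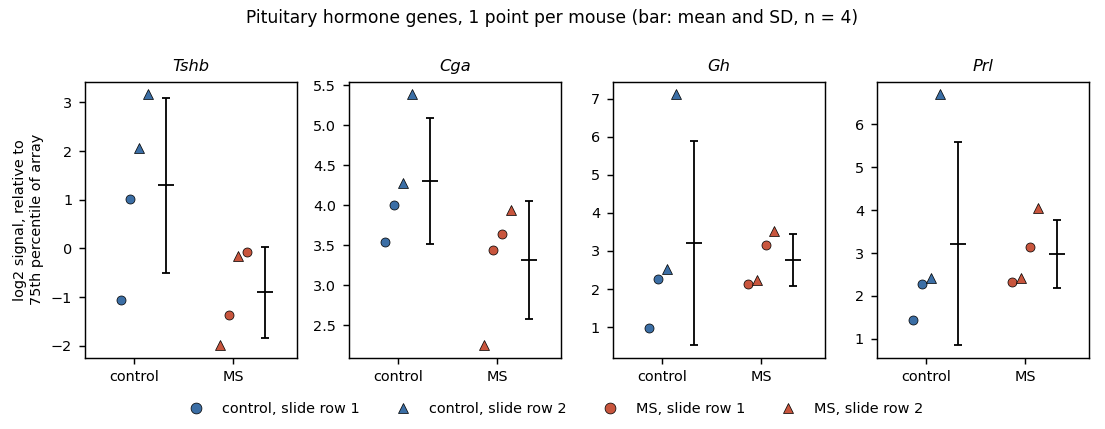
Log2 signal relative to the 75th percentile of the array (y axis) of 4 pituitary hormone genes in each mouse, control in blue and MS in red, circles for slide row 1 and triangles for row 2, with mean and SD (n = 4). Control mouse 6.2 is the highest point in all 4 panels, at 3.16, 5.39, 7.11 and 6.70.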

How the data were processed

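The 8 hypothalamus arrays (4 control, 4 MS mice, grouped by the sample labels) were analysed. The authors deposited scanner output of Agilent Feature Extraction 10.10.1.1, with an intensity per spot that is background subtracted and corrected for gradients within the array. They also deposited a table of log2 values for 34970 probes (13 of the 14 members), whose normalization was not stated in the labels or methods. The headers place probes on mm9.

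In R 4.3.3 with limma 3.58.1, outlier spots were left out, the log2 processed intensity was averaged per probe and set relative to the 75th percentile of the array. The 37314 probes flagged as well above background by the scanner software in 4 or more of the 8 mice were tested with lmFit and eBayes, two-sided, Benjamini-Hochberg over all of them at 0.05. The fit was tested on simulated data. Lists used the brightest tested probe of a gene, named through RefSeq accessions or symbols. Named genes were all members, per pathway list the genes with the smallest p above and below 0, 7 others of the axis and those most correlated with a member over the arrays. The rule of smallest p was set for the marker lists too, but only some of those genes are named. The members, lists and rules were chosen with earlier results of these data known. As alternatives, arrays were scaled by quantiles or the median, normexp (offset 50) replaced the background subtraction, and others were no or a stricter filter, the authors' table, slide row, a random block, array weights, another variance model, the brightest probe of each gene and leaving out each mouse. The number of arrays limits the precision. A gene of the pathway lists, which stays in their counts, is not reported by name here.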

Additional observations from a re-analysis of the deposited data

Results flagged for a closer look

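With 4 mice in a group, 28 sets of values (14 probes in 2 groups) were examined for a mouse far from the others, and 2 were found, both MS mouse 7.6, where chance gives about 1 in 20. In the brighter *Thra* probe its value of 4.32 was the lowest of the MS group, and the gap to the nearest mouse was 0.846 of the range of the group. In the dimmer *Slco1c1* probe its value of -0.63 was the lowest, with a gap of 0.853 of the range. The array of this mouse was also the dimmest, with a 75th percentile of 499 intensity units, and the part of this in both values was not tested. Without MS mouse 7.6 the log2 fold changes were 0.040 for *Thra* and 0.17 for *Slco1c1*.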

How the results depend on the processing

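None of the 14 probes passed the test under any of the 20 alternatives in which their fold changes were recomputed. *Dio3* was in 18 of these. The smallest adjusted p of a member in them was 0.394 (limma, *Trh*, slide row 1 alone). Use of only the brightest probe of each gene was a further alternative, in which 0 of 16591 probes were called. The count of all probes called was 1 in row 2 alone and 1 when mice with the same first number formed a random block, whose estimated correlation was -0.19, and 0 otherwise. At an unadjusted p under 0.05 (limma) the member count was 1 with median scaling (*Igsf1* variant 1), against 1123 of all 37314 probes. It was 1 with normexp (*Trh*, against 496) and 1 in the authors' table (*Trh*, against 1084 of 34970). In row 1 alone it was 2 (*Trh* and *Igsf1* variant 2, against 1980). With the random block it was 2 (*Trh* and *Igsf1* variant 1, against 3370), and without MS mouse 7.1 it was 1 (*Trh*, against 1680). The count of member probes with groups fully apart was 4 in row 1 alone (*Trh*, *Trhde* and *Igsf1* variants 1 and 2), where 34.4% of all probes were apart. When a mouse was left out the count was 0 to 1. It was *Igsf1* variant 1 without control mouse 8.5, where 4.16% of all probes were apart. Without MS mouse 7.1 it was *Trh*, where 5.42% of all probes were apart. *Trh* (-1.19 to -0.034), *Trhr* (-0.22 to -0.083), both *Slco1c1* probes and *Igsf1* variant 1 (0.088 to 0.19) kept their sign in all alternatives.

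Of 278 recomputed fold changes 37 had the opposite sign. With quantile scaling these were *Dio3* at 0.0099 and *Thra* probe 1 (the brighter) at -0.0086. With normexp they were *Trhde* at 0.010, *Dio3* at 0.088, *Thrb* probe 1 at -0.0053 and *Thrb* probe 2 at 0.0038. In the authors' table they were *Trhde* at 0.013, *Thra* probe 1 at -0.0078 and probe 2 at -0.022, and *Thrb* probe 1 at -0.0033 and probe 2 at 0.046. In row 1 alone they were *Dio3* at 0.14, *Thra* probe 1 at -0.019 and probe 2 at -0.047. In row 2 alone they were *Trhde* at 0.0034, *Dio2* at -0.21, *Thrb* probe 1 at -0.0082 and probe 2 at 0.022, and *Igsf1* variant 2 (probe 3) at -0.17. With the random block they were *Dio2* at -0.021 and *Thrb* probe 1 at -0.0017, and with array weights *Dio2* at -0.067 and *Dio3* at 0.16. Leaving out 1 mouse at a time gave *Dio2* -0.18 to 0.17, *Dio3* -0.18 to 0.17, *Thra* probe 1 -0.014 to 0.049, *Thra* probe 2 -0.034 to 0.071, *Thrb* probe 1 -0.011 to 0.025, *Thrb* probe 2 -0.066 to 0.017 and *Igsf1* variant 3 (probe 2) -0.016 to 0.13. The cause of these changes was not tested. The groups share no mouse numbers. No paired analysis was possible because the groups compared share fewer than 2 numbers. For *Dio3* the signal over background limits what can be measured.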

Other observations

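Nearest in pattern to the other members, by Pearson r over the 8 arrays and 1 gene each, were *Slc38a11* for *Trhr* (0.98), *Ube3b* for *Trhde* (0.97), *Agr2* for *Dio2* (0.94), *Ube2ql1* for *Dio3* (0.97), *Golga7b* for *Thra* (0.98), *Morn3* for *Thrb* (0.96), *Tacr1* for *Slco1c1* (0.94) and *Arl6ip6* for *Igsf1* (0.97). *Agr2* shared the high value of *Dio2* in MS mouse 5.3, where it measured -2.09 against -5.80 to -3.89 in the other 7 mice. Its choice by r over the same arrays favors such a likeness. None of these genes passed the test (limma, smallest adjusted p = 0.989).

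Among the cell type lists, *Aqp4*, the water channel of astrocyte endfeet, differed by 0.25 on the log2 scale (standard error 0.069; limma, adjusted p = 0.989), with all 4 MS mice above all 4 controls. It was the 1 marker of 81 tested with groups fully apart (1.23%, against 2.03% of all probes tested). *Crh*, the stress peptide of paraventricular neurons, had a log2 fold change of -0.34, with all 4 MS mice below 3 of the 4 controls, and *Agrp*, a feeding peptide, had 0.22. The median log2 fold change was 0.052 for neurons, 0.080 for astrocytes, 0.015 for oligodendrocytes, -0.022 for microglia, -0.034 for endothelium, -0.072 for tanycytes, -0.14 for ependyma, -0.083 for choroid plexus, -0.72 for pituitary (-0.22 without control mouse 6.2), -0.023 for thalamus, -0.087 for the hypothalamus list and 0.014 for paraventricular neurons. No marker of any list had an adjusted p under 0.05 (limma), and 4 of the 81 markers (4.94%, against 3.4% of all probes tested) had an unadjusted p under 0.05, namely *Hcrt*, *Pmch*, *Aqp4* and *Tshb*.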
